A study of Mus musculus with 6 samples.

Results

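Mitosis and G2/M genes were examined in sorted mouse bone marrow progenitors, as 50 named genes that drive entry into mitosis, spindle assembly, chromosome condensation, checkpoint control and cell division. Members were matched by symbol to probe sets with a single gene name, taking the brightest probe set where a gene had several, and 49 of the 50 were found among 19661 genes tested. Ccnb1, which encodes cyclin B1, was not analysed here.

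The cells were megakaryocyte-erythroid progenitors, precursors of erythrocytes and platelets, of 2 genotypes: wild type at Fog1 (Fog1+/+) and carrying a knock-in allele on both chromosomes (Fog1ki/ki). FOG1, the product of Zfpm1, is a cofactor of the erythroid and megakaryocytic transcription factor GATA1. Both genotypes had the strain label B6.129, neither carries a label for treatment or age, and the change made by the knock-in allele is not described in the labels. For each genotype there were 3 arrays called biological replicates, without a statement of how many animals each held, so p-values measure the spread between these samples. The gate kept cells without lineage markers or Sca1 or CD34, positive for Kit and low for FcgrII/III.

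Cells enter mitosis when cyclin A and cyclin B activate CDK1, which the CDC25 phosphatases switch on and which sets off chromosome condensation and spindle assembly. Kinetochores on the centromeres then attach to spindle microtubules, and the spindle checkpoint holds back the anaphase-promoting complex until every kinetochore is attached. That complex next destroys cyclin B and securin, separase cuts cohesin, and the central spindle guides the cleavage furrow. Most of these genes are transcribed late in the cell cycle. In bulk samples, fewer dividing cells and less transcript per dividing cell cannot be told apart.

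Many G2/M promoters are known to carry CCAAT boxes, bound by the factor NF-Y, and a cell cycle homology region (CHR), bound by the DREAM and MuvB complexes. Promoter windows of 300 bases, from 250 bases before to 50 bases after each RefSeq start on GRCm38.p6, matched 40 of the 49 members and gave 43 windows. A CHR, searched as TTTGAA or TTCGAA on either strand, was found in 34 of the 43 windows (79.1%), against 19.2% of all 32851 windows. CCAAT on either strand was also found in 34 of the 43 windows (79.1%, against 37.4% of all windows), and both motifs in 31 (72.1% against 7.52%). Stretches of 8 promoters are printed because they hold both motifs. Kif23 had the smallest p of the members, and the others belong to members with textbook G2/M roles. Capitals mark CCAAT and CHR matches in either orientation, and each stretch is written 5′ to 3′ on the strand of the gene.
Kif23: caggcggccgctgATTGGcctgTTTGAAat
Cdk1: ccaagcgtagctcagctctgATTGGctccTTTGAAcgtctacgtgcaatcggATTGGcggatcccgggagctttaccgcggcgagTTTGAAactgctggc
Top2a: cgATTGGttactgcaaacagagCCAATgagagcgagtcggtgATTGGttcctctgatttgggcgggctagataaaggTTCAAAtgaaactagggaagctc
Cdc20: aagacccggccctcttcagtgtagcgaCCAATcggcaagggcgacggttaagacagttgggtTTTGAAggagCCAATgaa
Ube2c: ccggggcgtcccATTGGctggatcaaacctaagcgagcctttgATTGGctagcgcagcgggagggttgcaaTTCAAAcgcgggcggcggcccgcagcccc
Espl1: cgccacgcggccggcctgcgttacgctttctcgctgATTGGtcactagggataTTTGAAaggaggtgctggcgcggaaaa
Kif11: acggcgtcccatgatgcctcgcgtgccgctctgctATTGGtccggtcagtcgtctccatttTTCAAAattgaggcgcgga
Mki67: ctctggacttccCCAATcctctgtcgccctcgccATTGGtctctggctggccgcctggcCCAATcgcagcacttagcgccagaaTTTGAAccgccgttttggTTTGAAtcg

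On GRCm38.p6 these stretches lie at chr9:61946790-61946819 (Kif23, minus strand), chr10:69352913-69353012 (Cdk1, minus), chr11:99024190-99024289 (Top2a, minus) and chr4:118437344-118437423 (Cdc20, minus). The others lie at chr2:164769829-164769928 (Ube2c, plus), chr15:102296213-102296292 (Espl1, plus), chr19:37376302-37376381 (Kif11, plus) and chr7:135716469-135716579 (Mki67, minus). In Kif23 the CCAAT match began at position -7 from the start and the CHR at position 3. A CCAAT match also stood upstream of the CHR in Cdc20, Espl1 and Kif11, where the CHR began at -18, -27 and -19. Cdk1 held 2 CCAAT and 2 CHR matches in its stretch of 100 bases, and Top2a held 3 CCAAT and 1 CHR.

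The matches lay close to the start. Of the 43 member windows, 30 (69.8%) held a CHR beginning no more than 50 bases before the start or in the transcribed 50 bases, against 5.31% of all windows. CCAAT within the 100 bases before the start was found in 28 member windows (65.1%, against 19.3%). A GATA motif, searched as AGATAA on either strand because GATA1 is FOG1's partner, was found in 3 of the 43 windows (6.98%, against 11.2% of all windows), those of Cenpa, Espl1 and Top2a. E2F sites, searched as TTTCGCGC or TTTGGCGC on either strand, were found in the windows of Cdk1 and Ncapd2 (4.65%, against 0.813%). For comparison, 33.3% of the windows of 25 DNA replication genes held the E2F motif, 18.5% held a CHR and 70.4% held CCAAT, the last close to the share in the members. These matches describe the letters of the windows and were not tested for binding.

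**Figure D1:**
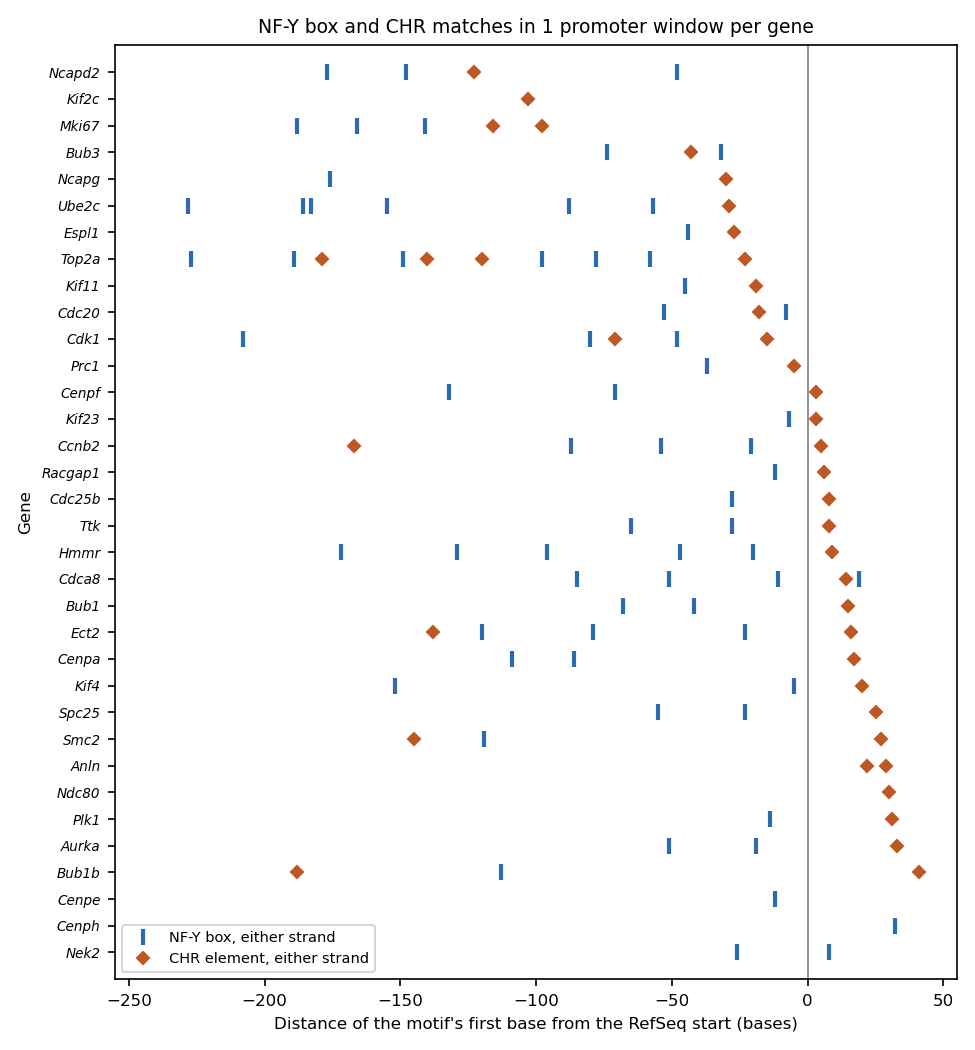
Positions of CCAAT (NF-Y box, bars) and CHR (diamonds) matches in 1 promoter window for each of the 34 members with a match, as the distance in bases of the motif's first base from the RefSeq start (grey line). Most CHR matches sit around the start and most CCAAT matches upstream of it.

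Of 11 measured markers of the gate and the label, Klf1 lay at 8.23 to 8.37 on the log2 scale of the deposited values in all arrays. Cd34, which the gate excludes, lay below the lower quartile of every array. Gata1 was at 8.54 to 8.57 in Fog1+/+ and 8.09 to 8.47 in Fog1ki/ki, and Kit at 10.26 to 10.30 and 9.72 to 10.05. On the higher side, Fcgr2b was at 4.71 to 4.75 in Fog1+/+ and 4.98 to 5.07 in Fog1ki/ki. Itga2b was at 6.32 to 6.67 and 6.73 to 6.86, and Tal1 at 7.72 to 7.78 and 7.84 to 7.96. The Fog1ki/ki mean was higher for 7 of the 11 and lower for 4. Of the 11, 0 passed over all genes, and 2 higher and 2 lower had an unadjusted limma p under 0.05 (36.4%, against 9.57% of all genes). For 5 of the 11 the genotypes did not overlap (45.5%, against 14.8% of all genes). Mean levels of the 12 mast cell markers were 5.15 to 5.16 in Fog1+/+ and 6.08 to 6.52 in Fog1ki/ki, and 4 of the 12 rose over all genes (Ms4a2, Rgs13, Gata2 and Alox5ap), while Mcpt4 lay below the lower quartile of every array. The 9 megakaryocyte markers averaged 6.48 to 6.51 and 6.73 to 6.87 (0 of 9 passed), and of the 9 maturing erythroid markers, at 8.98 to 9.18 and 8.82 to 9.02, 1 fell (Xk). Means of the 11 granulocyte-macrophage markers (6.33 to 6.45 and 6.23 to 6.52) and of the 9 lymphoid markers (5.27 to 5.30 and 5.24 to 5.39) overlapped. The part of these markers in the results was not tested. Array medians lay between 6.02 and 6.15. Replicate 3 of each genotype had low Y-linked genes (Eif2s3y at 3.21 and 3.46, against at least 9.29 in the others). Without those arrays, with 2 left per genotype, the member median was -0.020 and 0 members passed over all genes, with 1 of 49 at an unadjusted p under 0.05 in limma, against 6.22% of all genes in that fit.

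None of the 49 members passed the test between Fog1+/+ and Fog1ki/ki in limma, a linear model with a spread shared across genes (0 higher and 0 lower at an adjusted p under 0.05). Over all genes the same rule called 0.773% (152 of 19661), of which 0.376% of all genes were higher and 0.397% lower. Before adjustment, 1 member of the 49 had a limma p under 0.05, Kif23 on the lower side, against 9.57% of all genes (4.99% higher and 4.58% lower). All differences given here are Fog1ki/ki minus Fog1+/+ on the log2 scale of the deposited values, and they ran from -0.36 for Kif23 to 0.24 for Espl1. For all 49 members, the 95% interval of the difference lay within 1.5-fold in either direction, as it did for 89.3% of all genes. In 16 alternative fits, between 44 and 49 members stayed within 1.5-fold and all 49 within 2-fold.

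For 5 members (10.2%, against 14.8% of all genes) every array of one genotype lay above every array of the other. Kif23, Cdca8 and Anln had the lower arrays in Fog1ki/ki (6.53% of all genes), and Kif4 and Ncaph the higher ones (8.31% of all genes). In the Fog1ki/ki mean 32 members were lower (65.3%, against 42.8% of all genes), 16 higher and 1 equal. The same 42.8% is the background of the counts of lower genes by role below. The median difference of the members was -0.063, against 0.023 for all genes. The direction of this median depended on the scaling. With quantile normalization repeated the median was 0.013 (0.0011 for all genes), with 20 members lower and 29 higher. With each array centred on its median it was -0.12 (-0.030 for all genes), with 40 lower and 9 higher. Centring moved the difference of every gene by the same amount, so the member median stayed at -0.087 from that of all genes.

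**Figure D2:**
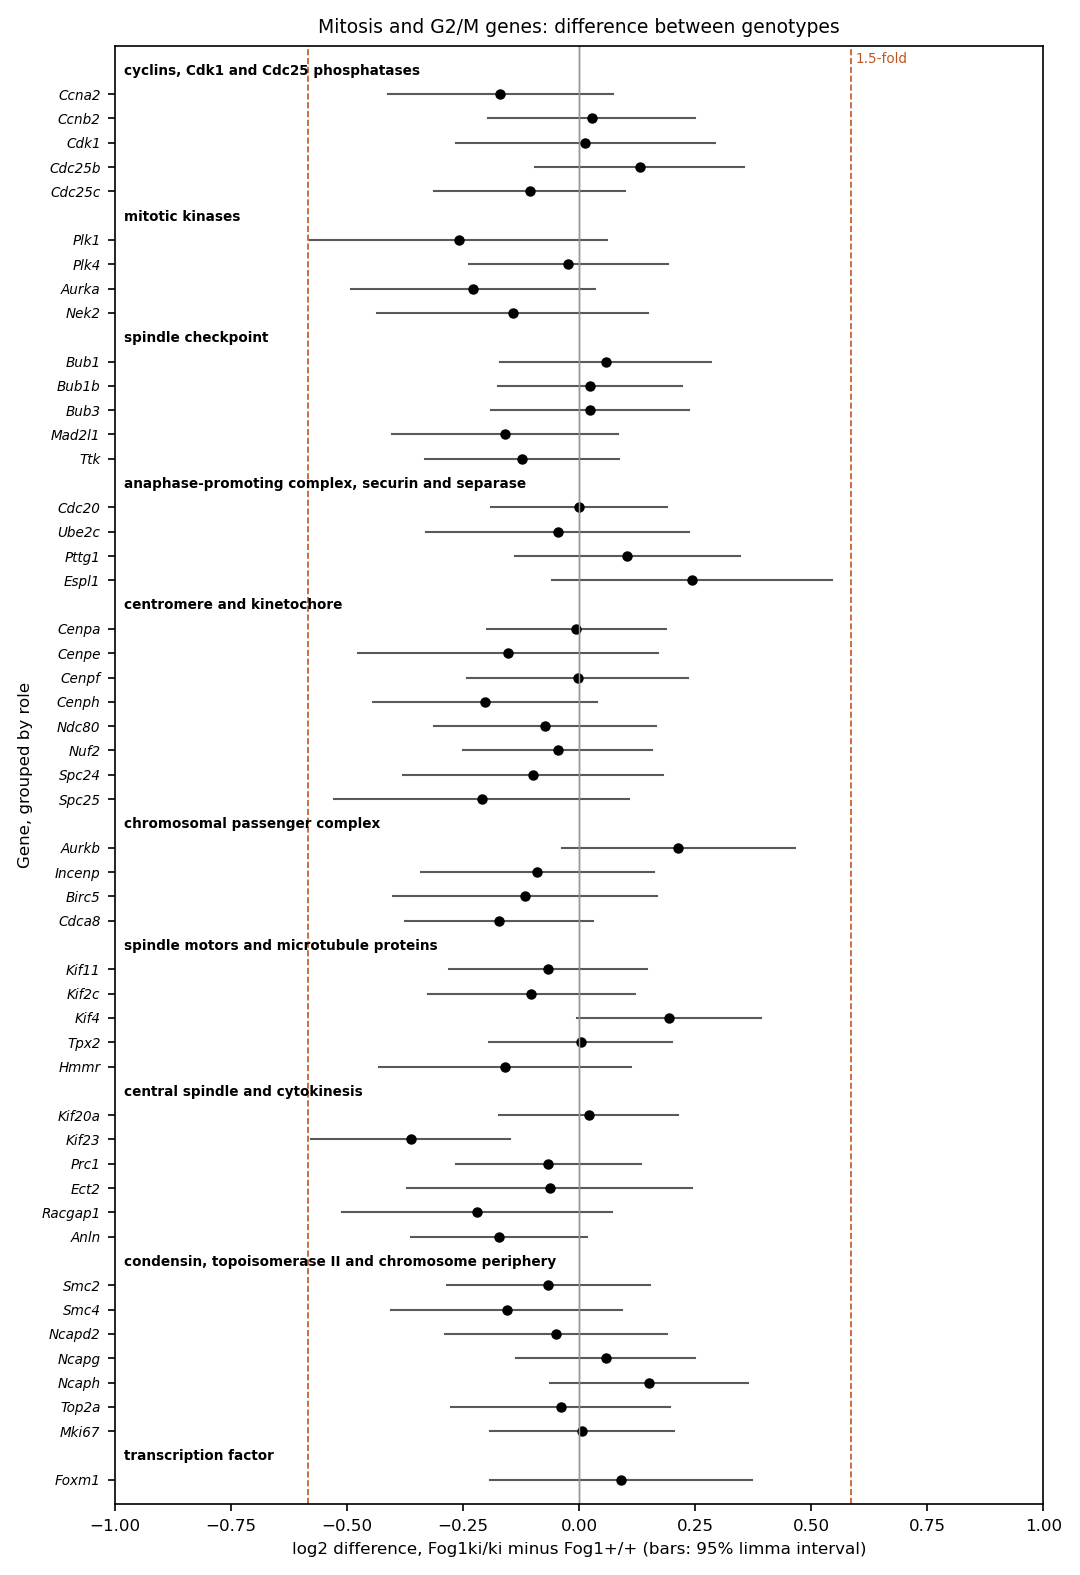
Log2 difference, Fog1ki/ki minus Fog1+/+, for each of the 49 members (points) with its 95% limma interval (bars), grouped by role, and dashed lines at 1.5-fold. All intervals lie inside the dashed lines, and only that of Kif23 leaves out 0.

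**Figure D3:**
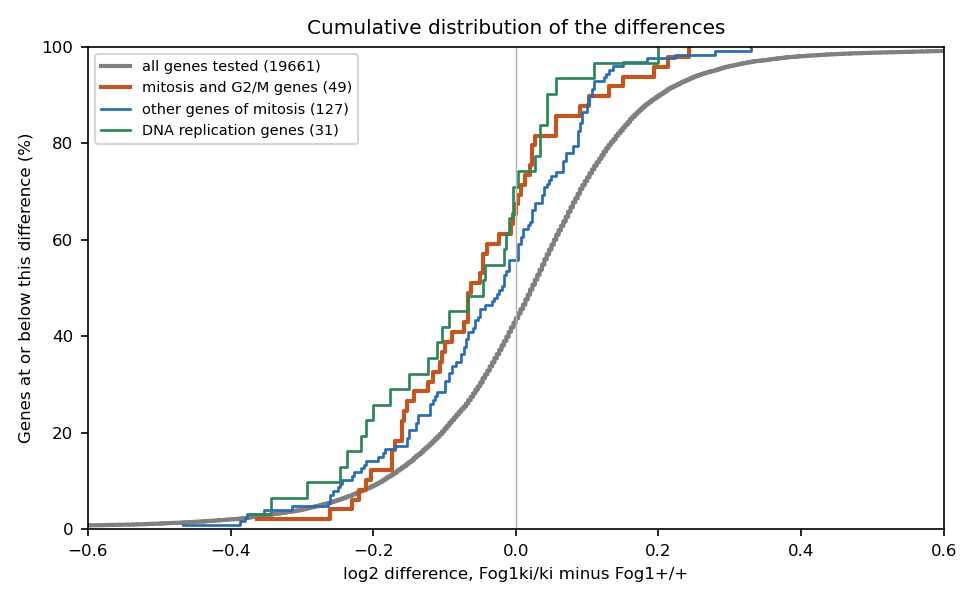
Cumulative share of genes at or below each log2 difference, for all 19661 genes tested, the 49 members, 127 other genes of mitosis and 31 DNA replication genes. The x axis shows differences from -0.6 to 0.6. The member curve lies left of that of all genes through its middle part, with medians of -0.063 and 0.023.

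The signal was well above the dim end of the arrays. All 49 members lay above the array median in every array, and 43 of them lay above the upper quartile (7.61 to 7.68) in every array. Levels of different probe sets are not comparable with each other, so members are set only against themselves in other arrays.

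Kif23, the motor subunit of centralspindlin, which bundles the central spindle for cytokinesis, had the largest difference. Its values were 8.84, 8.82 and 9.03 in Fog1+/+, against 8.50, 8.57 and 8.53 in Fog1ki/ki. The lowest Fog1+/+ array was thus above the highest Fog1ki/ki array. The means were 8.90 ± 0.12 and 8.53 ± 0.04 (SD, n = 3 each), a ratio of 1.29 for Fog1+/+ over Fog1ki/ki. The difference did not pass over all genes (-0.36, 95% interval -0.58 to -0.15, limma unadjusted p = 0.00413, adjusted p = 0.194). Kif23 stayed between -0.42 and -0.30 in the 16 alternative fits and passed in none of them.

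Its partners in the central spindle and in cytokinesis showed smaller values. Racgap1, the other centralspindlin subunit and a GTPase-activating protein, measured 8.02, 8.06 and 8.22 in Fog1+/+ and 8.10, 7.64 and 7.90 in Fog1ki/ki (-0.22, limma adjusted p = 0.655). The Fog1ki/ki arrays spread over 0.46, and 1 of them lay among the Fog1+/+ arrays. Anln encodes anillin, a scaffold of the contractile ring, and was among the tightest members, with 9.88, 9.89 and 9.90 against 9.73, 9.68 and 9.74. Its genotypes did not overlap, at a ratio of 1.13 for Fog1+/+ over Fog1ki/ki and a difference of -0.17 (limma unadjusted p = 0.0679, adjusted p = 0.576). The limma test draws the small variance of Anln toward that of all genes, so its standard error is larger than its own arrays would give. Kif20a, a kinesin that carries passenger proteins to the midzone, measured 8.21, 8.13 and 8.10 against 8.17, 8.15 and 8.18, with a difference of 0.02. Prc1, which crosslinks antiparallel microtubules, had a difference of -0.067, and Ect2, the RhoA exchange factor of the furrow, one of -0.063. Of the 6 cytokinesis genes, 5 lay lower in the Fog1ki/ki mean and 0 passed over all genes, and with quantile normalization repeated 3 were lower and 3 higher.

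The cyclin, Cdk1 and Cdc25 genes had differences from -0.17 to 0.13, and none passed over all genes (0 of 5). Cdk1, the kinase that drives entry into mitosis, measured 9.92, 10.10 and 10.31 in Fog1+/+ and 10.02, 10.08 and 10.27 in Fog1ki/ki. Both genotypes covered nearly the same range, with a difference of 0.013 (95% interval -0.27 to 0.29, limma adjusted p = 0.986). Ccna2, cyclin A2, measured 10.95, 10.93 and 10.97 against 10.82, 10.93 and 10.59. Fog1ki/ki replicate 3 lay lowest and replicate 2 at the level of the Fog1+/+ arrays, and the difference was -0.17 (limma adjusted p = 0.684). Ccnb2, cyclin B2, had a difference of 0.027. Cdc25b, a phosphatase that removes the inhibitory phosphates of CDK1, measured 6.41, 6.27 and 6.49 against 6.46, 6.62 and 6.48 (0.13, limma adjusted p = 0.746). Cdc25c, a related phosphatase, had a difference of -0.11. Of these 5 genes, 3 were higher and 2 lower in the Fog1ki/ki mean.

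All 4 mitotic kinases had lower Fog1ki/ki means, and none passed over all genes (0 of 4). With quantile normalization repeated 3 were lower and 1 higher. Plk1, the polo-like kinase of centrosome maturation and mitotic entry, was among the most variable members. It measured 8.65, 8.97 and 9.13 in Fog1+/+ and 8.82, 8.49 and 8.66 in Fog1ki/ki. The lowest Fog1+/+ array lay below 2 Fog1ki/ki arrays, so the difference of -0.26 was within the spread (95% interval -0.58 to 0.060, limma adjusted p = 0.625). Aurka, the Aurora kinase of spindle poles, measured 8.89, 8.71 and 8.99 against 8.76, 8.46 and 8.68 (-0.23, limma adjusted p = 0.598). Nek2, which separates centrosomes, had a difference of -0.14. Plk4, the kinase that starts centriole duplication, measured 10.36, 10.45 and 10.37 against 10.39, 10.47 and 10.25 and had a difference of -0.023.

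Among the spindle checkpoint genes, differences ran from -0.16 to 0.057. Mad2l1, the checkpoint protein that holds CDC20, measured 11.34, 11.50 and 11.39 in Fog1+/+ and 11.11, 11.42 and 11.22 in Fog1ki/ki (-0.16, limma adjusted p = 0.704). Bub1, a checkpoint kinase at kinetochores, measured 10.43, 10.56 and 10.61 against 10.54, 10.72 and 10.51 (0.057, limma adjusted p = 0.912). In both genes the arrays of the genotypes overlapped. The differences of Bub1b and Bub3, partners in the mitotic checkpoint complex, were both 0.023, and that of the kinase gene Ttk was -0.12.

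The target of that checkpoint was among the 3 members with the smallest spread. Cdc20, the activator of the anaphase-promoting complex, measured 9.36, 9.35 and 9.41 in Fog1+/+ and 9.36, 9.36 and 9.40 in Fog1ki/ki, with equal means of 9.37 (95% interval of the difference -0.19 to 0.19). Ube2c, the ubiquitin-conjugating enzyme of the complex, measured 8.22, 8.56 and 8.55 against 8.28, 8.35 and 8.56 (-0.047, limma adjusted p = 0.948). Its arrays spread over 0.34 and 0.28, far more than those of Cdc20. Espl1, separase, had the largest positive difference, with 7.44, 7.57 and 7.81 in Fog1+/+ and 7.93, 7.63 and 7.99 in Fog1ki/ki. Fog1ki/ki replicate 2 lay below the highest Fog1+/+ array, and the difference of 0.24 did not pass (95% interval -0.058 to 0.54, limma adjusted p = 0.628). Pttg1, securin, the inhibitor of separase, had a difference of 0.10.

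All 8 centromere and kinetochore genes lay lower in the Fog1ki/ki mean, with differences from -0.21 to -0.0033, and none passed over all genes (0 of 8). With quantile normalization repeated, 4 of the 8 were lower and 4 higher. Centring arrays on their medians lowered the difference of every gene by the same amount, so all 8 had to stay lower. Spc25, a subunit of the NDC80 complex that grips microtubules, measured 9.06, 9.27 and 9.33 in Fog1+/+ and 8.91, 9.30 and 8.82 in Fog1ki/ki (-0.21, limma adjusted p = 0.703). Cenpe, the kinesin that carries chromosomes to the spindle equator, measured 10.24, 10.30 and 10.28 against 10.07, 10.44 and 9.85 (-0.15, limma adjusted p = 0.807). Within Fog1ki/ki, replicate 2 was the highest array of both genes, and the Fog1+/+ arrays of Cenpe stood only 0.06 apart. Cenpf, a large kinetochore protein of G2, measured 9.58, 9.61 and 9.58 against 9.49, 9.78 and 9.49 (-0.0033). Cenpa, the histone H3 variant that marks centromeres, had a difference of -0.0067. The NDC80 complex genes Ndc80, Nuf2 and Spc24 had differences of -0.073, -0.047 and -0.10, and Cenph, an inner kinetochore gene, one of -0.20.

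In the chromosomal passenger complex, which corrects wrong attachments, the kinase and its partners differed in sign. Aurkb, the Aurora kinase of the complex, measured 8.70, 8.69 and 8.91 in Fog1+/+ and 9.10, 8.82 and 9.02 in Fog1ki/ki. Only Fog1ki/ki replicate 2 lay inside the Fog1+/+ range, and the difference was 0.21 (95% interval -0.037 to 0.46, limma adjusted p = 0.605). Cdca8, which encodes borealin, measured 9.21, 9.32 and 9.23 against 9.02, 9.07 and 9.15 (-0.17, limma unadjusted p = 0.0842, adjusted p = 0.602). Its genotypes did not overlap. Incenp, the scaffold of the complex, and Birc5, survivin, had differences of -0.090 and -0.12.

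Of the spindle motors and microtubule proteins, Kif4 had the second smallest unadjusted p of the members. Kif4, a chromosome-bound kinesin on the X chromosome, measured 9.46, 9.47 and 9.41 in Fog1+/+ and 9.67, 9.69 and 9.56 in Fog1ki/ki. The genotypes did not overlap, at a ratio of 1.14 for Fog1ki/ki over Fog1+/+ and a difference of 0.19 (95% interval -0.0053 to 0.39, limma unadjusted p = 0.0552, adjusted p = 0.540). Replicate 3, whose Y-linked genes were low in both genotypes, was the lowest array of each genotype for Kif4. Hmmr, a spindle pole protein, measured 9.21, 9.43 and 9.47 against 9.04, 9.39 and 9.20 (-0.16, limma adjusted p = 0.741). Kif11, the motor that separates spindle poles, had a difference of -0.067, and the microtubule depolymerase Kif2c one of -0.10. Tpx2, the activator of Aurora A, had one of 0.0033.

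Condensin subunits, topoisomerase II and Ki-67 shape mitotic chromosomes. Mki67, the proliferation marker Ki-67, measured 11.04, 11.04 and 10.96 in Fog1+/+ and 11.02, 11.08 and 10.96 in Fog1ki/ki. The arrays of both genotypes were interleaved over 0.12, with a difference of 0.0067 (95% interval -0.19 to 0.20, limma adjusted p = 0.991). Top2a, the topoisomerase that untangles sister chromatids, measured 11.46, 11.62 and 11.57 against 11.46, 11.67 and 11.40 (-0.040, limma adjusted p = 0.946). A dimmer probe set of Top2a measured 5.81, 6.34 and 6.30 against 6.10, 6.30 and 5.81. Ncapg, a condensin I subunit, was the tightest member within Fog1ki/ki, with 10.69, 10.69 and 10.78 against 10.78, 10.78 and 10.77 (0.057, limma adjusted p = 0.894). Ncaph, which closes the condensin I ring, measured 9.43, 9.49 and 9.54 against 9.61, 9.75 and 9.55, so that the genotypes did not overlap but came within 0.01 of each other (0.15, limma adjusted p = 0.683). Smc4, a core ATPase of condensin, measured 11.53, 11.52 and 11.58 against 11.29, 11.60 and 11.27 (-0.16, limma adjusted p = 0.719). Its partner Smc2 had a difference of -0.067, and Ncapd2 one of -0.050.

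Foxm1 encodes a transcription factor that joins MuvB at G2/M promoters. It measured 7.78, 7.71 and 7.69 in Fog1+/+ and 8.07, 7.60 and 7.78 in Fog1ki/ki, a difference of 0.090 (limma adjusted p = 0.882). The highest and the lowest of the 6 arrays were both Fog1ki/ki.

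**Figure D4:**
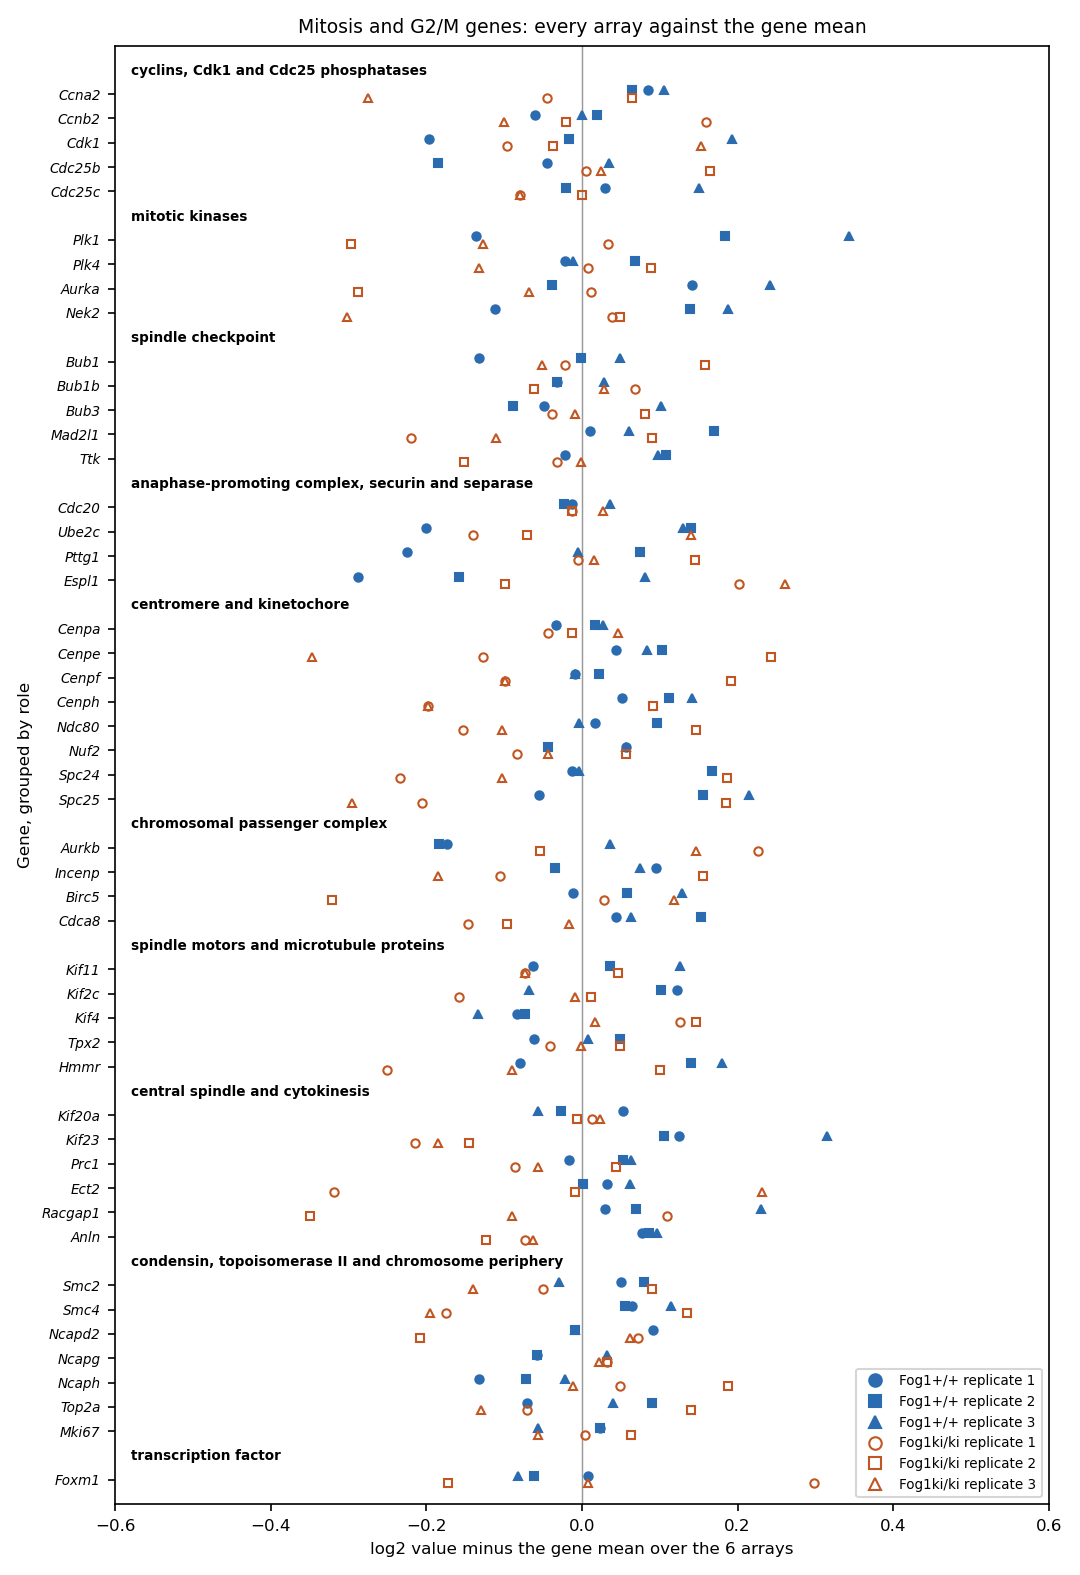
Log2 value of each array minus the gene's mean over the 6 arrays, for the 49 members grouped by role. Filled blue symbols are Fog1+/+ and open orange symbols Fog1ki/ki, with a circle, square and triangle for replicates 1, 2 and 3. The open squares (Fog1ki/ki replicate 2) lie at the right for most kinetochore genes and at the left for Plk1, Aurka, Birc5, Racgap1 and Foxm1.

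Pairs of Fog1ki/ki arrays differed over a range that covered the differences between genotypes. The median absolute difference over the members was 0.060 to 0.090 between pairs of Fog1+/+ arrays, 0.060 to 0.19 between pairs of Fog1ki/ki arrays and 0.080 to 0.15 between arrays of different genotype. Over all genes that median was 0.11 to 0.12 within Fog1+/+, 0.14 to 0.18 within Fog1ki/ki and 0.14 to 0.16 between genotypes. For 35 of the 49 members, the range of the arrays within each genotype was larger than the difference between the means. The share of all genes for which this held was not counted. The range was larger in Fog1ki/ki than in Fog1+/+ for 34 of the 49 members, with median ranges of 0.25 and 0.11, while 64.0% of all genes also had the larger range in Fog1ki/ki (medians 0.27 and 0.19).

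Within Fog1ki/ki, replicate 2 was the highest of the 3 arrays for 29 members (59.2%) and the lowest for 12 (24.5%). The shares were 29.1% and 29.9% of all genes and 31.7% and 39.9% of genes above the upper quartile. Replicate 2 was the highest for 41.7% and the lowest for 33.1% of the 127 other genes of mitosis, and for 32.3% and 48.4% of the 31 DNA replication genes. With quantile normalization repeated it was the highest for 29 members and the lowest for 10, while replicate 1 was the lowest for 30 and the highest for 4. On that scale the median distance from the mean of the other Fog1ki/ki arrays was 0.11 for replicate 2 and -0.11 for replicate 1. By role, replicate 2 was the highest array for 7 of 8 kinetochore genes, 5 of 5 spindle motor and microtubule genes and 5 of 7 condensin, topoisomerase and chromosome periphery genes. Cenpe and Spc25 stood 0.48 and 0.44 above the mean of the other Fog1ki/ki arrays, Spc24 0.36 and Smc4 0.32. On the low side, Birc5 stood at -0.40, Racgap1 at -0.36, Espl1 at -0.33, Foxm1 at -0.33, the condensin gene Ncapd2 at -0.28, Aurka at -0.26, Plk1 at -0.25 and Aurkb at -0.24. A CHR match was found in 15 of 23 members with a window where replicate 2 was the highest and in 8 of 9 where it was the lowest. Where it was between the others or tied, 8 of 8 had a match, and of all members with a window 31 of 40 (77.5%).

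Fog1ki/ki replicate 2 also had the lowest Kit (9.72, against 9.96 to 10.30 in the other arrays), the lowest Gata1 (8.09, against 8.24 to 8.57), the highest mean of the megakaryocyte markers (6.87) and the lowest mean level over the maturing erythroid markers (8.82, against 8.90 to 9.18). Other markers of these lists went the other way in this array. Within Fog1ki/ki it had the highest Klf1 (8.35, against 8.31 and 8.23) and Xk (7.96, against 7.76 and 7.79). It also had the lowest Itgb3 (5.39, against 5.45 and 5.66) and Treml1 (7.46, against 7.50 and 7.72) of that genotype. The part of these markers in the pattern was not tested. Without this array 8 of the 49 members had an unadjusted limma p under 0.05, against 1 with all arrays. On the lower side were Mad2l1, Cenpe, Cenph, Spc25, Kif23 and Smc4, each highest in replicate 2 within Fog1ki/ki. On the higher side were Espl1 and Aurkb, each lowest in replicate 2. Leaving this array out thus had to enlarge all 8 differences. None of the 8 passed over all genes (limma adjusted p from 0.296 to 0.506), and 9.78% of all genes passed the unadjusted rule in that comparison. The median difference of the kinetochore genes was -0.087 with all arrays, -0.19 without Fog1ki/ki replicate 2 (8 lower), -0.016 without replicate 1 (6 lower, 2 higher) and -0.038 without replicate 3 (7 lower, 1 higher). Since replicate 2 was the highest array for 7 of these 8 genes, leaving it out had to lower the differences of those 7.

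Within Fog1+/+, replicate 1 was the lowest array for 26 of the 49 members (53.1%) and replicate 3 the highest for 27 (55.1%). All genes gave 33.1% and 29.4% and genes above the upper quartile 39.5% and 35.6%. The 127 other genes of mitosis gave 48.8% and 44.1%, and the 31 DNA replication genes 45.2% and 58.1%. The median deviations of the members from the genotype mean were small, at -0.037 in replicate 1 and 0.037 in replicate 3. With quantile normalization repeated the counts of members were 20 and 23. Cdk1, Plk1, Ube2c and Espl1 had the widest ranges in Fog1+/+, between 0.34 and 0.48, and in each of them replicate 1 was the lowest.

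**Figure D5:**
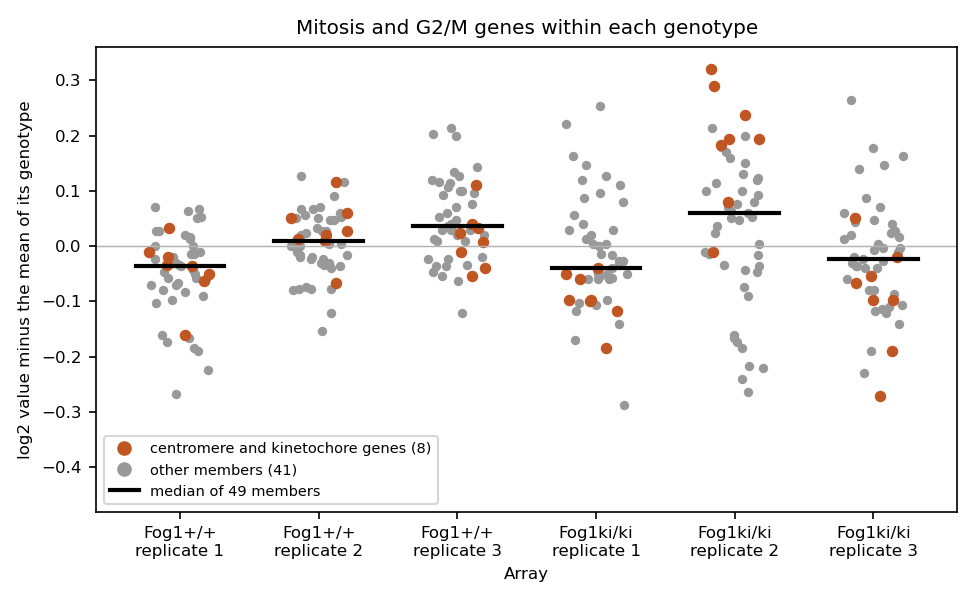
Log2 value minus the mean of its own genotype for the 49 members in each array. Orange points are the 8 centromere and kinetochore genes, grey points the other 41 members and black lines the median of all 49. The orange points lie mostly high in Fog1ki/ki replicate 2, whose median is 0.060.

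Beyond the members, 127 other measured genes of mitosis gave no limma calls over all genes (0 in either direction). Of them 1 higher gene and 9 lower genes had an unadjusted p under 0.05 (7.87%, against 9.57% of all genes), with a median of -0.020. Cdc14a, a phosphatase that reverses CDK phosphorylation, measured 7.87, 7.81 and 8.01 in Fog1+/+ and 7.47, 7.57 and 7.25 in Fog1ki/ki (-0.47, limma unadjusted p = 0.00242, adjusted p = 0.147). Cep55, a midbody protein of abscission, measured 5.53, 5.81 and 5.94 against 5.44, 5.31 and 5.37 (-0.39, limma adjusted p = 0.292). In both the genotypes did not overlap, as for 11 of the 127 genes (8.66%, against 14.8% of all genes). Nusap1, a spindle microtubule protein, was the 1 gene on the higher side (0.33, limma adjusted p = 0.343).

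Earlier steps of the cycle also gave no calls. Of 31 DNA replication genes 0 passed over all genes, with a median of -0.047. At an unadjusted limma p under 0.05, 0 were higher and 4 lower (12.9%). For all genes the share was 9.57% in either direction and 4.58% on the lower side. The genotypes did not overlap for 7 of the 31 (22.6%), all lower in Fog1ki/ki. For all genes that share was 14.8% in either direction and 6.53% on the lower side. Mcm3, a helicase subunit, measured 9.41, 9.41 and 9.36 against 9.12, 9.01 and 9.02 (-0.34, limma adjusted p = 0.177), and Orc1, of the origin recognition complex, 8.60, 8.62 and 8.64 against 8.27, 8.35 and 8.36 (-0.29, limma adjusted p = 0.249). Among 14 G1 cyclin and Cdk inhibitor genes 0 passed, and Ccne1, cyclin E1, which drives entry into S phase, measured 9.60, 9.49 and 9.55 against 9.32, 9.19 and 9.11 (-0.34, limma adjusted p = 0.226). In these 3 genes the genotypes did not overlap. That held for 2 of the 14 G1 cyclin and Cdk inhibitor genes (14.3%, against 14.8% of all genes).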

How the data were processed

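RNA was extracted with Trizol, amplified with WT-Ovation Pico and hybridised to 1-colour arrays, per the labels' protocols. The values the authors deposited are log2 values, as their range shows. The submitters' processing notes name RMA, with settings not given in the sources used here. Genes were assigned with GEO's platform annotation. Of 25668 probe sets, 20777 had 1 gene, 232 several and 4659 none, and 564 genes with several probe sets kept the brightest. Genotypes were compared over 19661 genes using lmFit and eBayes of limma (version 3.58.1, R 4.3.3), two-sided, at a Benjamini-Hochberg adjusted p under 0.05. The number of arrays limits the precision.

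Simulated data had the real gene means, with the residual SDs shuffled between genes. On them limma recovered 19, 39, 47 and 50 of 50 genes changed by 0.5, 1, 1.5 and 2 on the log2 scale. It called 9 of 19461 unchanged genes. Changes as small as those of the members (-0.36 to 0.24) were not simulated. The members and lists were chosen with earlier results of these data known. Full values were given for members with an unadjusted p under 0.05, the highest and lowest difference of each role group, Cdk1, Mki67, Top2a, Plk1, Aurkb and Foxm1, the 3 largest and 3 smallest pooled SDs, and other listed genes with an unadjusted p under 0.01. Ccnb1 was also on that list. Further genes named, Racgap1, Aurka and Nusap1 among them, were picked with their values known. The 16 alternative fits changed the scaling, filter, probe set rule, variance model or blocks, or left out arrays. Promoter sequences are those of RefSeq, and 40 of 49 members matched. Other software was pandas 2.3.3 (Python 3.11.15), with matplotlib 3.10.9 for plots.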

Additional observations from a re-analysis of the deposited data

How the results depend on the processing

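Of 16 alternative fits none called a member, and the smallest adjusted p of a member ran from 0.164 to 0.791 across them; at an unadjusted p under 0.05 with all arrays, 1 member, 10 other genes of mitosis and 1882 of all genes passed. The sign of the difference was the same in all 16 for 25 of the 49 members. Fits with the replicate block, the term for low Y-linked values, the intensity trend, the filter or all probe sets left the differences of the members unchanged by construction. They could alter p-values but no sign or median. The member median of -0.063 moved by more than the spread between arrays with quantile normalization repeated (0.013) and with arrays centred on their medians (-0.12). Centring moved all genes by the same amount, with an all-gene median of -0.030, against 0.023 before. The cause of the shift with quantile normalization was not tested. Leaving out each array in turn gave member medians from -0.087 to -0.037 and 60 to 134 genes called over all, against 152, and without both arrays with low Y-linked values 24 genes were called, with fewer samples in each fit. Among the other genes of mitosis 0 were called when any array but 1 was left out, and 1 (Mis18a, limma adjusted p = 0.0332) without Fog1ki/ki replicate 1. With the replicate number as a block, 133 genes and 0 members were called, and the member median of -0.063 could not change in this balanced design. Same-numbered arrays deviated together with correlations of 0.068, -0.0076 and 0.13, so the numbers were not taken to pair the arrays.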
